A study of Mus musculus with 6 samples.

Results

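Secreted inflammatory factors and the adhesion molecule induced with them were examined in cultures labelled as normal fibroblasts, from mammary fat pads of mice of the inbred strains BALB/c and C57BL/6. The set comprised 9 genes chosen by name: Csf1, Ccl2, Ccl7, Cxcl1, Cxcl12, Il6, Lif, Lcn2 and Icam1. All 9 were found among the 12023 genes of the count table, and all 9 passed the filter on low counts that left 8752 genes for testing. The donors were untreated healthy females, 8 to 12 weeks old by the extraction protocol, and each strain has 3 biological replicates. After digestion with collagenases and DNase and lysis of red cells, what remained was seeded on collagen and cultured for 4 days. A magnetic separation is mentioned in the design text, without its target, which asks how the fibroblasts of these strains differ at baseline. By its title the series concerns cancer-associated fibroblasts and the killing of cancer cells by NK cells.

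Fibroblasts release chemokines and cytokines that recruit and sustain white blood cells. CSF1 is the survival factor of macrophages, CCL2 and CCL7 attract monocytes through the receptor CCR2, CXCL1 attracts neutrophils through CXCR2, and CXCL12 holds and attracts cells that carry CXCR4. IL-6 and LIF signal through the shared chain gp130 to the transcription factor STAT3. Lipocalin 2, the product of Lcn2, binds bacterial iron carriers and is made by neutrophils, macrophages and epithelia as well as by stromal cells. ICAM-1 is the ligand of the integrin LFA-1 on leukocytes, NK cells included. The transcription factor NF-kappaB drives many of these genes during inflammation.

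Promoters are shown for 4 genes: Csf1 and Icam1, whose libraries did not overlap between the strains, and Il6 and Lcn2, which varied most between libraries. Each is the 300 bases from 250 before to 50 after the RefSeq start on GRCm38.p6, 5′ to 3′ on the strand of the gene, and capitals mark matches to the 10-letter NF-kappaB consensus on either strand. Csf1 lay at chr3:107760420-107760719 (minus strand), Icam1 at chr9:21015690-21015989 (plus), Il6 at chr5:30012864-30013163 (plus) and Lcn2 at chr2:32387690-32387989 (minus).
Csf1: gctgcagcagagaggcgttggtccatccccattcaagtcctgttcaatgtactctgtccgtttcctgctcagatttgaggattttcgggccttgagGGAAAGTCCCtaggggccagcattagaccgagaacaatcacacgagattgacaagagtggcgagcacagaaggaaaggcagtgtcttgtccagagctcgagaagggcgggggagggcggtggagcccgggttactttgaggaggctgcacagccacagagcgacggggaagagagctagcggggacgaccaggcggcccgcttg
Icam1: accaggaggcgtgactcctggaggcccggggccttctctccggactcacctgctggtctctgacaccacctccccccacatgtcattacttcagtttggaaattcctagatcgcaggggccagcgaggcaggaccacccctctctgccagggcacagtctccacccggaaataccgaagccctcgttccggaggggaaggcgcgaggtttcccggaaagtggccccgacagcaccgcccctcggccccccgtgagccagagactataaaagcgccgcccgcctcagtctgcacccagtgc
Il6: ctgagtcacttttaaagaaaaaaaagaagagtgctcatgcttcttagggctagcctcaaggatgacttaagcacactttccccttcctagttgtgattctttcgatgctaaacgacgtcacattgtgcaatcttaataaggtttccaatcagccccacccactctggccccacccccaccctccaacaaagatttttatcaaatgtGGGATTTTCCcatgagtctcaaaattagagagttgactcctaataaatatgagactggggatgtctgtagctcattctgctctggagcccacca
Lcn2: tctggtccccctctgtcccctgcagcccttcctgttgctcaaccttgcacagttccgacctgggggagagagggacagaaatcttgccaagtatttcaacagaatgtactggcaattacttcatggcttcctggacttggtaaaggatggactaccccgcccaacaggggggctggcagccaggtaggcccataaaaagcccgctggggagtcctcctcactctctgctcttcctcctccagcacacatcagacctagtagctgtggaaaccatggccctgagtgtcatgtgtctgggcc
The promoter table matched 7 of the 9 genes, and Ccl2 and Ccl7 have no entry in it. The NF-kappaB consensus was present in 4 of the 7, or 57.1%, against 8.18% of the promoters of 27025 genes. The match was GGGATTTTCC in Il6, GGAAAGTCCC in Csf1 (the consensus on the opposite strand) and GGGACGCCCC in Lif, and Cxcl1 held GGGAATTTCC together with GGAATTTCCC, which overlap on opposite strands. The letters TGANTCA, bound by AP-1, occurred in Il6 and Lif and in 7.93% of all promoters. The letters TTGCNNAA, bound by C/EBP factors, occurred in Il6 and Lcn2 and in 10.8% of all promoters. The letters TATAAA occurred in Icam1, beginning 14 bases after the RefSeq start, and in 14.2% of all promoters. In the GENCODE annotation Icam1 starts at 21015985, near the end of this window, so by that annotation the letters lie before the start. Each motif was searched on both strands. These matches are letters in a window and were not measured as sites of binding. A promoter without a match, such as that of Icam1 for NF-kappaB, may hold sites with other letters.

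The libraries held 1035485 to 4665896 counts, so that 3 counts corresponded to 2.87 CPM (counts per 1000000 of the library total, scaled by TMM factors) in the shallowest and 0.606 CPM in the deepest. C57BL/6 replicate 1 stood apart, with a mean correlation of 0.721 with the other libraries across 5541 genes against 0.847 to 0.893 for the others. The label of fibroblasts was checked with 12 markers, of which 11 were in the table, and of these Fap had 0 counts in C57BL/6 replicate 1. Their summed level was 7319 to 14393 CPM in BALB/c and 3033 to 15810 CPM in C57BL/6, lowest in C57BL/6 replicate 1. Markers of other cells were also counted. Mammary epithelial markers, 17 of 18 in the table, summed to 2220 to 13171 CPM in BALB/c and 3646 to 20884 CPM in C57BL/6. The epithelial sum exceeded the fibroblast sum in 3 of 6 libraries, BALB/c replicate 2 and C57BL/6 replicates 1 and 3. By these sums the markers went against the label there. The lists differ in their number of genes, so the sums do not give shares of cells. Macrophage markers, 15 of 15 in the table, summed to 715 to 1037 CPM in BALB/c and 1039 to 2035 CPM in C57BL/6. The sum was highest in C57BL/6 replicate 1, though Ptprc and Mrc1 had 0 counts there and Adgre1 had 2. These markers were below the count filter. Endothelial markers, 9 of 10 in the table, summed to 49.97 to 93.0 CPM in BALB/c and 74.96 to 132 CPM, and neutrophil markers, 4 of 9 in the table with none reaching the count filter, to 6.38 to 8.62 CPM in BALB/c and 13.9 to 21.8 CPM in C57BL/6. Of the 5 endothelial markers tested 4 were lower and 1 higher in BALB/c, with 0 past the threshold or at an unadjusted p under 0.05 in edgeR and 0 with DESeq2 or quality weights, and the most abundant were Egfl7 and Esam. In such bulk RNA, fewer cells of a type and less RNA per cell cannot be told apart.

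Csf1 had the highest mean of the 9 genes over all libraries, 1573 CPM, and in BALB/c, while Lcn2 had the highest in C57BL/6, 2167 ± 1985 CPM against 1912 ± 324 CPM for Csf1 (SD, n = 3). Libraries were made from the 3′ ends of RNA, so a count depends little on transcript length, and levels of different genes are set side by side here as counts of ends, undivided by length. Lcn2 followed at 1413 CPM, Ccl2 at 447, Ccl7 at 279, Lif at 195, Cxcl12 at 87.3, Icam1 at 38.2, Il6 at 26.0 and Cxcl1 at 24.2 CPM. Csf1 ranked 93 and Lcn2 108 among the 12023 genes, and Cxcl1 ranked 5410. The order was not the same in each library. Csf1 exceeded Lcn2 in 3 of 6 libraries, Icam1 exceeded Il6 in 3 and Il6 exceeded Cxcl1 in 3, so these neighbours did not differ beyond their spread. Ccl2 exceeded Ccl7, and Lif exceeded Cxcl12, in 6 of 6 libraries. Between every pair of neighbours in this order the ranges over the libraries overlapped.

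**Figure D1:**
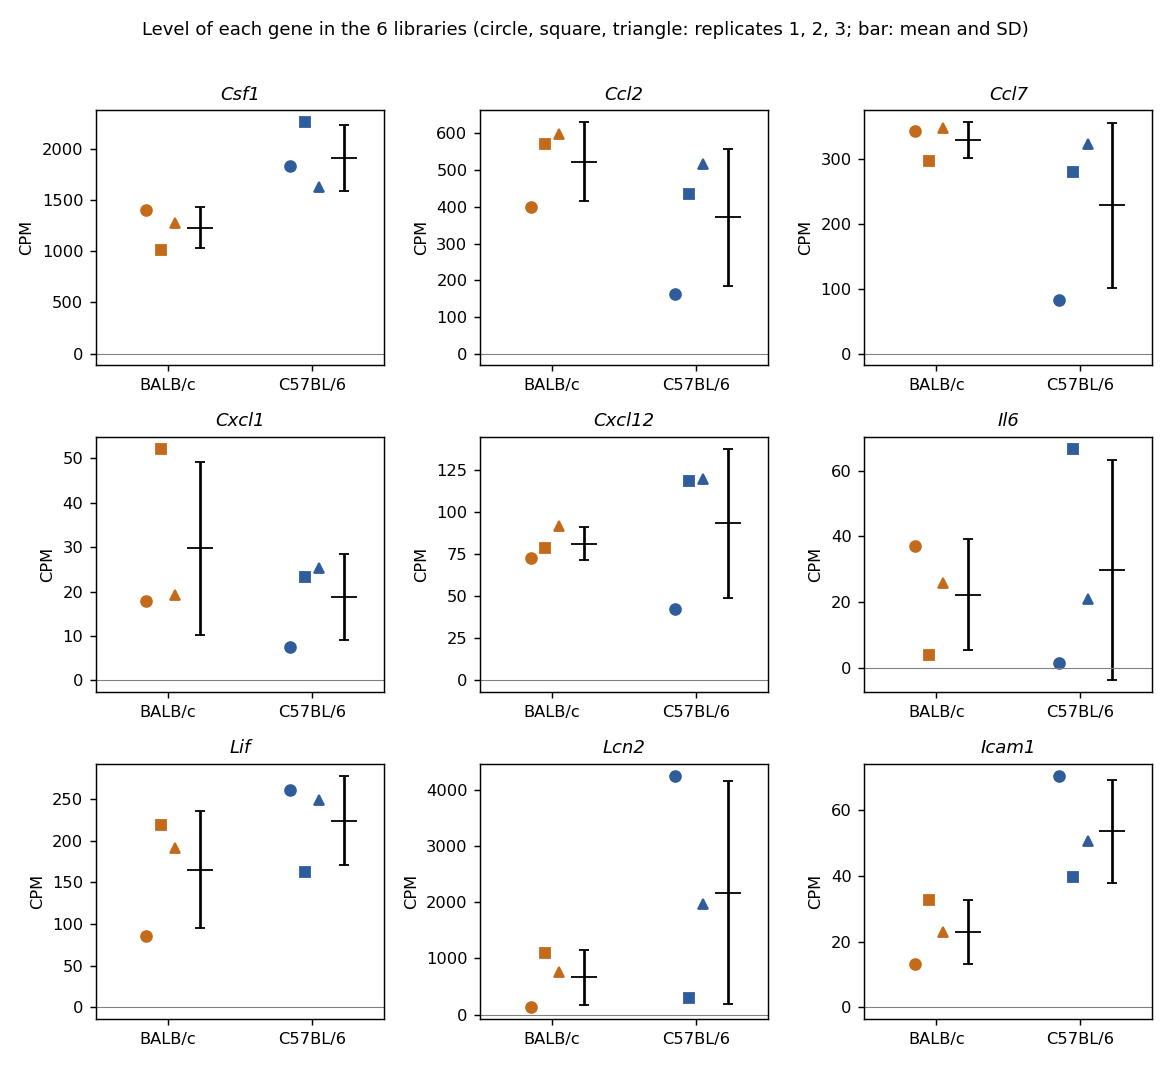
Level of each gene in CPM (vertical axis, each from 0) by strain, with 1 point per library and the mean and SD of 3 libraries beside it. Csf1 and Icam1 are the genes whose BALB/c points all lie below the C57BL/6 points. Lcn2 and Il6 have the widest spread within a strain relative to their means.

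None of the 9 genes differed between the strains past the threshold. With edgeR's quasi-likelihood test and Benjamini-Hochberg adjustment over all tested genes, 0 of 9 had an adjusted p under 0.05, where 18 genes in all, 0.206% of those tested, did (0.0686% higher and 0.137% lower in BALB/c). DESeq2 and limma-voom with library quality weights also called 0 of 9, where they called 71 and 57 of the 8752 tested genes. At an unadjusted p under 0.05 edgeR had 2 of the 9, Csf1 and Icam1, against 3.86% of all tested genes. In 6 genes the BALB/c mean was the lower on the fitted scale and in 3 the higher, with a median log2 difference, BALB/c minus C57BL/6, of -0.43 over the 9 and 0.01 over all tested genes, of which 48.9% had the lower value in BALB/c. Libraries of the strains were fully separated in 2 of 9 genes, with BALB/c the lower in both, and in 11.4% of tested genes (6.22% lower and 5.15% higher in BALB/c). With 1 library left out the separated genes were 3, 3 and 2 of 9 without BALB/c replicates 1, 2 and 3, against 19.9%, 17.5% and 20.7% of tested genes. They were 3, 4 and 3 of 9 without C57BL/6 replicates 1, 2 and 3, against 18.9%, 29.5% and 18.8%. Genes separated with all libraries stay so when 1 is left out, so these counts do not bear on the stability of Csf1 and Icam1.

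**Figure D2:**
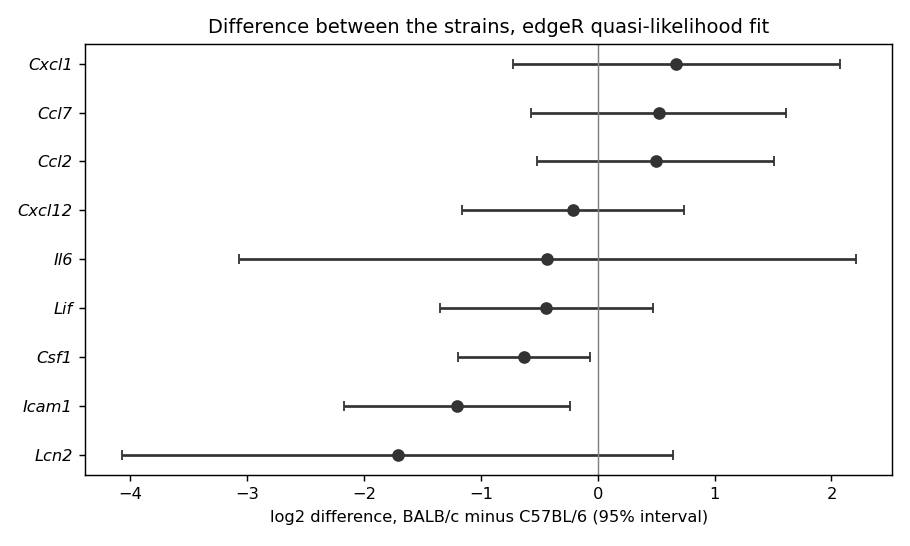
Fitted log2 difference between the strains (horizontal axis, BALB/c minus C57BL/6) for each gene, with its 95% interval from edgeR. The intervals of Csf1 and Icam1 end below 0, at -0.07 and -0.24, and those of the other 7 genes include 0, though no gene passed the threshold once adjusted over all genes.

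Csf1 was at 1408, 1011 and 1283 CPM in BALB/c replicates 1, 2 and 3. In C57BL/6 replicates 1, 2 and 3 it was at 1837, 2268 and 1632 CPM. Every C57BL/6 library lay above every BALB/c library, and the highest and lowest libraries of a strain differed by a ratio of 1.39 in each. Mean levels were 1234 ± 203 CPM for BALB/c and 1912 ± 324 CPM for C57BL/6 (SD, n = 3 each), a ratio of 1.55. Its fitted log2 difference was -0.63 ± 0.24 (SE), with a 95% interval of -1.20 to -0.07 (edgeR adjusted p = 0.954, unadjusted p = 0.0331). The direction held in each of the 14 alternative settings, with log2 differences of -0.75 to -0.48. Without C57BL/6 replicate 1 the difference was -0.67. As the strains were fully separated, leaving out 1 library could hardly reverse the direction and does not bear on its stability. The unadjusted p was under 0.05 in 9 of the 14 settings. In edgeR without BALB/c replicate 2 it was 0.132.

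Tested macrophage markers also had lower means in BALB/c. Of 12 tested, 12 had a lower BALB/c mean on the fitted scale, with a median log2 difference of -1.05. The strains did not overlap in 7 of these, against 11.4% of all tested genes. Of the untested markers, Ptprc and Adgre1 also had the lower mean in BALB/c and Mrc1 the higher, at 2.85 against 2.34 CPM. Csf1r, the receptor of CSF1, is on that list, with means of 17.3 ± 4.35 CPM (BALB/c) and 32.4 ± 15.3 CPM (C57BL/6), and the log2 difference of its levels was -0.92 ± 0.45 (edgeR adjusted p = 0.954). Lyz2, which encodes lysozyme, and C1qa, a chain of complement C1q, had the highest levels of the list, with log2 differences of -0.36 ± 0.30 and -1.11 ± 0.44. None of the 12 passed over all genes in edgeR, and DESeq2 called C1qb. In edgeR 7 had an unadjusted p under 0.05, against 3.86% of all tested genes. Without C57BL/6 replicate 1, 13 of 13 tested markers had the lower mean in BALB/c, with a median of -0.75. Csf1r and C1qa were then at -0.60 and -0.57. Csf1 had the rank of the macrophage sum in 3 of 6 libraries. Per CPM of that sum Csf1 was at 1.36, 1.41 and 1.32 CPM in BALB/c replicates 1, 2 and 3. In C57BL/6 replicates 1, 2 and 3 it was at 0.903, 2.18 and 1.05 CPM, so the ratios of the strains overlapped. This ratio was chosen after the values were seen. The part of macrophages in the difference of Csf1 was not tested.

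Icam1 was at 13.2, 32.6 and 23.0 CPM in BALB/c replicates 1, 2 and 3, from 20, 92 and 24 counts. It was at 70.3, 39.5 and 50.5 CPM in C57BL/6 replicates 1, 2 and 3, from 93, 51 and 250 counts. The lowest C57BL/6 library, replicate 2, lay above the highest BALB/c library, replicate 2. The gap between these libraries was within counting error. Their 95% exact Poisson intervals, 29.4 to 51.9 CPM in C57BL/6 replicate 2 and 26.3 to 40.0 CPM in BALB/c replicate 2, overlap. Fitted over all libraries, the log2 difference was -1.20 ± 0.41, with a 95% interval of -2.17 to -0.24 (edgeR adjusted p = 0.954, unadjusted p = 0.0212). Over the 14 alternatives it was -1.57 to -0.93, with an unadjusted p under 0.05 in 11 of them. The last 500 nt of the Icam1 transcript lie within exons of Gm47079, an antisense gene with no row in the table used here. The sources used here do not state whether counting used the strand, so reads of Icam1 and Gm47079 cannot be told apart. Icam1 is also expressed by macrophages, epithelium and endothelium. In 4 of 6 libraries its rank was that of the macrophage sum. Per 100 CPM of that sum Icam1 ranged from 1.27 to 4.56 CPM in BALB/c and from 3.25 to 3.80 CPM in C57BL/6. This ratio, too, was chosen after the values were seen, and the part of these cells was not tested.

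Lcn2 had the largest fitted difference of the 9 genes and a wide error. It was at 129, 1087 and 765 CPM in BALB/c replicates 1, 2 and 3. It was at 4244, 289 and 1966 CPM in C57BL/6 replicates 1, 2 and 3. C57BL/6 replicate 2 fell among the BALB/c libraries, so the strains overlapped, and the highest and lowest of the 6 libraries differed by a ratio of 32.8. The log2 difference was -1.71 ± 1.00, with a 95% interval of -4.07 to 0.64 (edgeR adjusted p = 0.954). Without C57BL/6 replicate 1 it was -0.78 ± 1.00, and without C57BL/6 replicate 2 it was -2.20 ± 0.79 (edgeR adjusted p = 0.670). Of the counts of all 9 genes, Lcn2 took 5.16% in BALB/c replicate 1 (95% exact Clopper-Pearson interval 4.48% to 5.91%, counting error only) and 63.3% in C57BL/6 replicate 1 (62.2% to 64.3%).

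The level of Lcn2 followed the sum of the epithelial markers from library to library. Both were highest in C57BL/6 replicate 1 and lowest in BALB/c replicate 1, where the epithelial markers summed to 20884 and 2220 CPM. Single markers, named here outside the rule, did not all do so. Epcam, Cdh1, Dsp and Perp were highest in BALB/c replicate 2, with Epcam at 360 CPM there and 166 CPM in C57BL/6 replicate 1. Krt5 was highest in BALB/c replicate 3, Wfdc18 in C57BL/6 replicate 3, and the other markers in C57BL/6 replicate 1. The rank of Lcn2 equalled that of the epithelial sum in 4 of 6 libraries, and C57BL/6 replicate 3 and BALB/c replicate 2, next in both orders, were exchanged. Krt18 and Krt8, keratins of simple epithelia, had the highest levels of the list, with log2 differences between the strains of -0.65 ± 0.79 and -0.47 ± 0.74. Of the 17 tested markers 13 were lower and 4 higher in BALB/c on the fitted scale, with a median log2 difference of -0.47. In edgeR 0 passed, and 1 had an unadjusted p under 0.05, against 3.86% of all tested genes. DESeq2 called 1, Wfdc18, a milk protein of the WAP family. Without C57BL/6 replicate 1 the split was 6 lower and 11 higher, and Krt18 and Krt8 were at -0.081 and 0.17. Per 100 CPM of the epithelial sum, Lcn2 was at 5.83, 8.25 and 7.45 CPM in BALB/c replicates 1, 2 and 3, and at 20.3, 7.94 and 16.8 CPM in C57BL/6 replicates 1, 2 and 3. The ratios of the strains overlapped, since C57BL/6 replicate 2 lay between BALB/c replicates 2 and 3. This ratio was chosen after the values were seen, and the part of epithelial cells in the difference of Lcn2 was not tested.

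**Figure D3:**
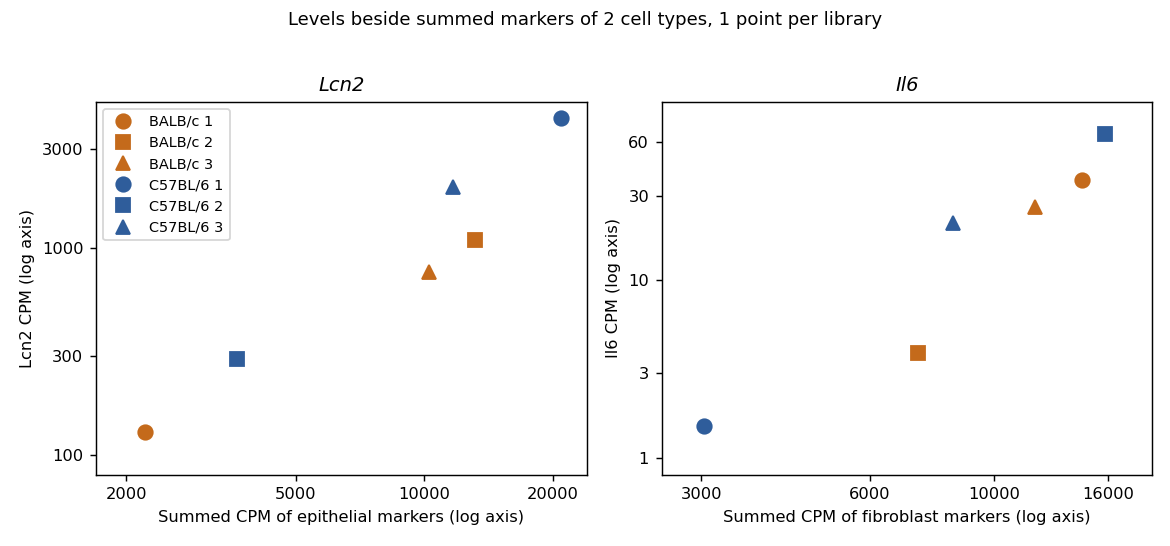
Left, Lcn2 in CPM against the summed CPM of epithelial markers. Right, Il6 in CPM against the summed CPM of fibroblast markers, with 1 point per library and log axes. C57BL/6 replicate 1 has the highest Lcn2, at 4244 CPM, and the lowest Il6, at 1.51 CPM.

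Il6 was at 37.0, 3.90 and 25.9 CPM in BALB/c replicates 1, 2 and 3, from 56, 11 and 27 counts. It was at 1.51, 66.6 and 21.0 CPM in C57BL/6 replicates 1, 2 and 3, from 2, 86 and 104 counts. The lowest and highest libraries were both C57BL/6 and differed by a ratio of 44.0, and the 2 counts of replicate 1 allow 0.183 to 5.46 CPM (95% exact Poisson interval, counting error only). For Il6 the log2 difference was -0.43 ± 1.13, with an interval of -3.07 to 2.21 (edgeR adjusted p = 0.963), and both directions lie within it. Its sign depended on the libraries: it was 0.10 without BALB/c replicate 2 and 0.83 without C57BL/6 replicate 2. Il6 stood in the same order over the 6 libraries as the fibroblast sum, in 6 of 6 ranks. Some of these ranks lie within counting error. The Poisson interval of BALB/c replicate 3, 17.1 to 37.6 CPM, overlaps those of BALB/c replicate 1 and C57BL/6 replicate 3. That of BALB/c replicate 2, 1.95 to 6.98 CPM, overlaps that of C57BL/6 replicate 1. The fibroblast sum ran from 15810 CPM in C57BL/6 replicate 2 down to 3033 CPM in C57BL/6 replicate 1. This was the closest match when the 9 genes were set beside the epithelial, fibroblast and macrophage sums. Ccl2, Ccl7, Cxcl1 and Cxcl12 shared the rank of any 1 sum in at most 2 libraries. Per 1000 CPM of the fibroblast sum Il6 was at 2.57, 0.533 and 2.18 CPM in BALB/c replicates 1, 2 and 3. It was at 0.499, 4.21 and 2.48 CPM in C57BL/6 replicates 1, 2 and 3. This ratio was also chosen after the values were seen, and the part of fibroblasts in the level of Il6 was not tested. Among the 10 tested fibroblast markers 5 were lower and 5 higher in BALB/c, with a median of 0.03 and 0 past the threshold or at an unadjusted p under 0.05 in edgeR, and 0 with DESeq2 or quality weights. Vim, an intermediate filament protein, and Fn1, fibronectin, were the most abundant of them, with log2 differences of 0.53 ± 0.53 and 0.65 ± 0.49, and of 0.096 and 0.23 without C57BL/6 replicate 1.

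Lif encodes the other ligand of gp130 in the set. It was at 85.9, 218 and 192 CPM in BALB/c replicates 1, 2 and 3. It was at 261, 163 and 249 CPM in C57BL/6 replicates 1, 2 and 3. The libraries with the least Lif, BALB/c replicate 1 and C57BL/6 replicate 2, were those with the most Il6, and the strains overlapped. The log2 difference was -0.44 ± 0.39, with an interval of -1.35 to 0.47 (edgeR adjusted p = 0.954). It was -0.13 without BALB/c replicate 1 and -0.70 without BALB/c replicate 2. Lif stood in the same order over the libraries as Lcn2 and had the rank of the epithelial sum in 4 of 6, and the part of epithelial cells was not tested. Osm, which encodes the related cytokine oncostatin M and lies 16530 bases from Lif on chromosome 11, was below the count filter.

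Ccl2 and Ccl7 are neighbours on chromosome 11, at 82035571 to 82037453 and 82045712 to 82047525 on the plus strand of GRCm38, with 8258 bases between them. Ccl2 was at 400.2, 571 and 599.9 CPM in BALB/c replicates 1, 2 and 3 and at 162, 434 and 517 CPM in C57BL/6 replicates 1, 2 and 3. Ccl7 was at 343, 298 and 348 CPM in BALB/c and at 83.2, 280.2 and 323 CPM in C57BL/6, in the same order of replicates. Both were lowest in C57BL/6 replicate 1, and the other 5 libraries lay within 400.2 to 599.9 CPM for Ccl2 and 280.2 to 348 CPM for Ccl7. Ccl2 had 1.17, 1.92 and 1.72 counts per count of Ccl7 in the BALB/c libraries, replicates 1, 2 and 3. The C57BL/6 libraries had 1.95, 1.55 and 1.60. Between the strains the log2 difference was 0.49 ± 0.43 for Ccl2 and 0.52 ± 0.47 for Ccl7 (edgeR adjusted p = 0.954 for each). Without C57BL/6 replicate 1 it was 0.13 ± 0.24 for Ccl2 and 0.12 ± 0.17 for Ccl7. Other chemokine genes of that cluster had lower levels. Ccl11, eotaxin, had means of 18.2 ± 5.36 CPM (BALB/c) and 8.05 ± 3.70 CPM (C57BL/6), and Ccl8 of 17.0 ± 14.96 and 18.3 ± 13.6 CPM (SD, n = 3 each). Ccl12 was below the count filter.

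Cxcl1 was at 17.8, 52.1 and 19.2 CPM in BALB/c replicates 1, 2 and 3, from 27, 147 and 20 counts. It was at 7.56, 23.2 and 25.3 CPM in C57BL/6 replicates 1, 2 and 3, from 10, 30 and 125 counts. BALB/c replicate 2 stood above the other 5 libraries and C57BL/6 replicate 1 below them. The log2 difference was 0.67 ± 0.60, with an interval of -0.73 to 2.07 (edgeR adjusted p = 0.954), and without BALB/c replicate 2 it was -0.03. Cxcl5, another chemokine that acts on CXCR2 and lies in the same cluster on chromosome 5, is named outside the rule. It was also highest in BALB/c replicate 2, at 41.5 CPM, and had 0 counts in C57BL/6 replicate 1. Of its neighbours, Cxcl3 was highest in BALB/c replicate 2 too, at 15.2 CPM. Ppbp was at 21.0 CPM in C57BL/6 replicate 3 and 20.9 CPM in BALB/c replicate 2. Cxcl2, below the count filter, was highest in C57BL/6 replicate 3, at 7.07 CPM, and Pf4 in C57BL/6 replicate 2, at 180 CPM.

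Cxcl12 was at 72.7, 79.0 and 92.0 CPM in BALB/c replicates 1, 2 and 3. It was at 42.4, 118 and 119.6 CPM in C57BL/6 replicates 1, 2 and 3. The BALB/c libraries lay close together, between C57BL/6 replicate 1 below them and the other C57BL/6 libraries above them. The log2 difference was -0.21 ± 0.40, with an interval of -1.16 to 0.74 (edgeR adjusted p = 0.954). Without C57BL/6 replicate 1 it was -0.56 ± 0.19 (edgeR adjusted p = 0.801, unadjusted p = 0.0220). Ackr3, a scavenging receptor of CXCL12, had means of 17.4 ± 4.60 CPM (BALB/c) and 6.52 ± 2.45 CPM (C57BL/6), a log2 difference of 1.39 ± 0.47 (edgeR adjusted p = 0.954), and is named after its values were seen.

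**Figure D4:**
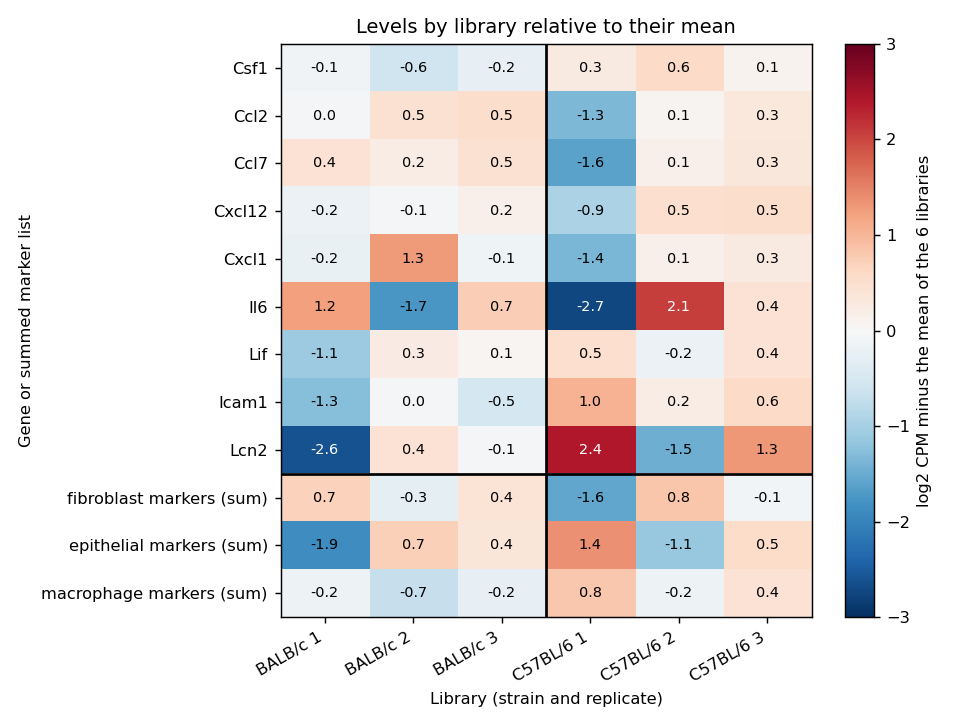
Log2 CPM of each gene in each library minus its mean over the 6 libraries (colour and printed value), with the summed markers of 3 cell types below the line. C57BL/6 replicate 1 is low for Ccl2, Ccl7, Cxcl12, Cxcl1 and Il6 and for the sum of fibroblast markers. It is high for Icam1 and Lcn2 and for the sums of epithelial and macrophage markers. Single markers can differ from their sum.

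At the median, the 9 genes varied more between libraries than most genes. The SD of log2 CPM over the 6 libraries was 0.793 at the median of the 9 and 0.490 at the median of all tested genes, and 8 of 9 lay above the latter. Il6 and Lcn2 had an SD of 1.84 and 1.83, larger than 98.4% and 98.3% of tested genes, while Csf1, at 0.409, was the exception below the median. C57BL/6 replicate 1 lay farthest from the mean for Ccl2, Ccl7, Cxcl1, Cxcl12 and Il6. A BALB/c library did so for Csf1, Lif, Lcn2 and Icam1. The spread without C57BL/6 replicate 1 was not computed. Patterns were compared as the root mean square difference between profiles of log2 CPM centred over the 6 libraries, among 8130 other genes. Ccl2 and Ccl7 were each other's nearest within the set, at 0.246, where Ccl7 ranked 124 among the genes closest to Ccl2, and Ccl2 183 among those closest to Ccl7. The genes closest to Lcn2 were Myh14, a non-muscle myosin, and Cited4, at 0.320 and 0.330, and those closest to Il6 were Pls3, an actin bundling protein, and Ccn4, at 0.203 and 0.330. Csf1 was closest to Rps2, a ribosomal protein gene, and Dok5, Icam1 to Dtx4 and S100a16, and Lif to Ajuba and Tbc1d9. The nearest genes to Cxcl1 were Mtss1 and Bhlhe40, to Cxcl12 Plpp3 and Tor1aip1, and to Ccl7 Kbtbd4 and Slc39a9. Over all genes compared the median difference was 0.563 for Csf1, 0.775 for Ccl2 and 1.71 for Lcn2.

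Other genes of the same pathways were read from lists, and 0 of them passed over all genes in edgeR. An unadjusted p under 0.05 was found in 3.86% of all tested genes, the share to set beside the count of each list. Of 31 other chemokines 16 were tested, 11 lower and 5 higher in BALB/c, with a median log2 difference of -0.24 and 5 at an unadjusted p under 0.05. Cxcl14 and Ccl6, the most abundant, had log2 differences of 0.16 ± 0.29 and -0.16 ± 0.29, the latter -0.35 without C57BL/6 replicate 1. Pf4, platelet factor 4, which macrophages also express, came nearest to the threshold and is named after its values were seen: its means were 42.6 ± 7.74 CPM (BALB/c) and 156 ± 21.0 CPM (C57BL/6), a log2 difference of -1.87 ± 0.26 (edgeR adjusted p = 0.0535). It passed without C57BL/6 replicate 1 (edgeR adjusted p = 0.0311), with DESeq2 (adjusted p = 2.6e-07) and with quality weights in limma (adjusted p = 0.00684). In the other 11 of 14 alternatives it did not pass, with edgeR adjusted p values up to 0.733, and it passed with 1 of the 6 libraries left out. DESeq2 also called Ccl24 and Ccl27a, both lower in BALB/c. Exons of Ccl27a overlap Il11ra1 on the opposite strand.

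Receptors of the 9 ligands were sparse. Of 16 listed, 11 were in the table and 6 were tested, 4 lower and 2 higher in BALB/c, with 3 at an unadjusted p under 0.05. Il6st, which encodes gp130, had means of 52.4 ± 11.1 CPM (BALB/c) and 70.1 ± 5.21 CPM (C57BL/6), a log2 difference of -0.42 ± 0.26 (edgeR adjusted p = 0.954). Il6ra and Lifr, the chains that pair with it, and Cxcr4 were below the count filter. Ccr2 and Cxcr2 have no row in the table used here. Of other cytokines 10 of 25 listed were tested, 5 lower and 5 higher, with 3 at an unadjusted p under 0.05. Mif and Spp1, osteopontin, were the most abundant of these, with log2 differences of -0.50 ± 0.29 and 1.45 ± 0.57 (edgeR adjusted p = 0.954 for each), and Mif was at -0.19 without C57BL/6 replicate 1.

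Of 13 tested NF-kappaB subunits and inhibitors 9 were lower and 4 higher in BALB/c, with a median of -0.31 and 1 at an unadjusted p under 0.05. Rela and Nfkb2, subunits of the factor, had log2 differences of -0.62 ± 0.28 and -0.31 ± 0.25, and of -0.37 and -0.15 without C57BL/6 replicate 1. Nfkbia, its inhibitor and target, is named outside the rule: it ranged from 55.5 to 172 CPM in BALB/c and from 111 to 200.4 CPM in C57BL/6, so the strains overlapped. Of 11 genes of the STAT3 pathway 9 were lower and 2 higher, with a median of -0.36 and 0 at an unadjusted p under 0.05. Stat3 and the kinase Jak1 had log2 differences of -0.75 ± 0.34 and 0.17 ± 0.27, and of -0.36 and -0.038 without C57BL/6 replicate 1. Of 17 other inflammatory genes 9 were lower and 8 higher, with a median of -0.11 and 1 at an unadjusted p under 0.05, and Ier3 and Cebpb, the most abundant, had -0.49 ± 0.53 and -0.23 ± 0.24. Without C57BL/6 replicate 1 Ier3 was at 0.052 and Cebpb at -0.15. DESeq2 and quality weights called 0 genes of the receptor, cytokine, NF-kappaB, STAT3 and other inflammatory lists.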

How the data were processed

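RNA of 6 cultures was measured, 3 per strain by the labels. Whole-number raw counts for each gene symbol were deposited, 12023 rows by 6 libraries. The tools named in the submitters' processing notes are bcl2fastq, STAR 2.4.2a and HTSeq, with mm10 as the build. Settings, strand use and any collapse of molecular identifiers are not stated there. Per the labels' protocols, libraries covered 3′ ends of mRNA. Total counts of 1035485 to 4665896 set the counting precision. The header line separates the first BALB/c names by spaces rather than a tab, so columns were read in the order of the library names in it.

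Counts were tested in R 4.3.3 with edgeR 4.0.16: filterByExpr by strain, TMM factors (0.869 to 1.06), a robust quasi-likelihood fit with strain as its term, two-sided tests and adjustment by Benjamini-Hochberg, called under 0.05. Its common dispersion gave a biological coefficient of variation of 41.1%. SE is the log2 difference divided by the square root of F. CPM use TMM-scaled totals, and log2 CPM a prior count of 2. DESeq2 1.42.0, limma 3.58.1 with quality weights, other scalings and filters, a replicate block and leaving out each library were alternatives, and the tests were tried on simulated counts. Library pairs of a strain differed beyond sampling noise (chi-square per degree of freedom 10.8 to 57.2).

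The members and lists were chosen with earlier results of these data known. Named genes are all members and, from each other list, up to 2 genes per direction past the threshold. Where none passed, the 2 tested genes of highest mean log2 CPM were named. The 2 closest profiles per member (mean log2 CPM of at least 3) were added. Other genes fall outside this rule. They are marked so, or are named as neighbours or overlapping genes, for a call by DESeq2, or for absent or low counts. The closest profiles to Ccl2 are not reported here. Csf1r and Itgam stand on both the receptor and the macrophage list, and Cxcr2 on the receptor and the neutrophil list. Positions are from GENCODE vM21 (GRCm38, the assembly of mm10), promoters from RefSeq GRCm38.p6. BLAST+ 2.17.0 searched the last 500 nt of 1 transcript per member for copies of at least 95% identity over 60 nt and found 1, for Icam1.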

Additional observations from a re-analysis of the deposited data

How the results depend on the processing

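In all 14 alternatives 0 of the 9 genes passed the threshold. Of 125 values of single genes 120 kept their direction and 5 reversed. Cxcl1 had a log2 difference of -0.032 without BALB/c replicate 2 (-0.032 to 0.95 over the libraries left out), and Cxcl12 one of 0.0011 without C57BL/6 replicate 3 (-0.56 to 0.0011). Il6 had 0.087 with the replicate block, 0.10 without BALB/c replicate 2 and 0.83 without C57BL/6 replicate 2 (-1.07 to 0.83), and it fell below a mean of 50 counts and gave no value there. Over all genes 18 passed, 6 higher and 12 lower in BALB/c, against 11 with library totals alone (5 higher and 6 lower), 71 with DESeq2 and 57 with limma-voom and quality weights, which weighted C57BL/6 replicate 1 at 0.157. Leaving out 1 library gave 0 to 25 genes, and 2 to 4 of the 9 genes without overlap, an alternative added after the data were seen. Same-numbered replicates deviated from their strain means with correlations of -0.42, -0.40 and -0.08 for numbers 1, 2 and 3, so the numbers were not taken as pairs, and the fit with the replicate block called 0 genes (158 at an unadjusted p under 0.05). The causes of these shifts were not tested. Il6, Cxcl1 and Icam1 rest on as few as 2, 10 and 20 counts in a library. Replicates are biological by the labels, and no batch is given.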
